A study of Homo sapiens with 30 samples.

Results

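The accessible chromatin around 6 genes of the CCM (cerebral cavernous malformation) complex and its pathway was examined in 2 human endothelial cell lines. The members were KRIT1, CCM2, PDCD10, HEG1, MAP3K3 and TLNRD1 (older name MESDC1), each taken as all ATAC-seq peak summits within 50 kb of its start on hg19. These windows held 1555 of the 3137748 deposited peak rows, with 144 at KRIT1, 280 at CCM2, 142 at PDCD10, 337 at HEG1, 251 at MAP3K3 and 401 at TLNRD1. After shared summits were merged over all libraries, 47 of 107672 regions of 501 bp lay in them, of which 3 were at KRIT1, 8 at CCM2, 3 at PDCD10, 13 at HEG1, 9 at MAP3K3 and 11 at TLNRD1. At the window edge, the closest summit outside was a TeloHAEC peak 50.03 kb from the HEG1 start with a fold enrichment of 3.80 in the authors' table, and the farthest summit inside was a TeloHAEC peak 49.63 kb away with 3.51.

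ATAC-seq tags open DNA with the Tn5 transposase. TeloHAEC are parental human aortic endothelial cells immortalised with telomerase and normally grown with VEGF, and Eahy926 is a parental endothelial hybrid line whose medium has none. Each line had 5 groups of 3 libraries, which the labels call biological replicates. Libraries of untreated cells were made on both of 2 days, here day 0 and day 1, and those of treated cells on day 1 only. The treatments were IL1b or TNFa at 10 ng/ml for 24 h and a change of VEGF, which was withheld from TeloHAEC and added to Eahy926. With 1 line of each kind, differences below are between these lines.

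KRIT1, CCM2 and PDCD10 form a scaffold in endothelial cells, and loss of any of these genes causes familial cavernous malformations of brain vessels. HEG1 is a transmembrane receptor that anchors KRIT1 at cell junctions. CCM2 binds the kinase MAP3K3 (MEKK3) and holds back its signalling through MAP2K5 and MAPK7 to MEF2 factors and the flow-response genes KLF2 and KLF4. TLNRD1 is a talin-related, actin-bundling protein that binds CCM2.

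The sequences just upstream of 4 of the starts are shown, because their peaks ranked highest (MAP3K3, PDCD10, CCM2) or lowest (HEG1) among the 6. They are the 250 bases before the most upstream start in the RefSeq promoter table, in which 6 of 6 members were matched by symbol. The build is GRCh38.p14, which is not the build of the peaks, so they were joined to the peaks by gene and not by position. Each is written 5′ to 3′ on the strand of its gene, and capitals mark matches on either strand to the CCAAT box (CCAAT), the ETS core (CCGGAA) and the GC box (GGGCGG).

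MAP3K3: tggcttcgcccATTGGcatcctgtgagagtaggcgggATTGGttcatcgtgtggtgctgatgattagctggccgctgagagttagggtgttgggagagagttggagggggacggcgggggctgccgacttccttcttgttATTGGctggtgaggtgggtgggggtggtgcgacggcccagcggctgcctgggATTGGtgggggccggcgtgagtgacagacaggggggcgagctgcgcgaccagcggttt
PDCD10: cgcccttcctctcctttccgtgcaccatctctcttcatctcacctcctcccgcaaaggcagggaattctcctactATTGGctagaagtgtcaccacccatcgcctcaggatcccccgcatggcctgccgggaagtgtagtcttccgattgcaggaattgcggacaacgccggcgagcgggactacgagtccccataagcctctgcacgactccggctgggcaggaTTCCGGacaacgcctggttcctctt
CCM2: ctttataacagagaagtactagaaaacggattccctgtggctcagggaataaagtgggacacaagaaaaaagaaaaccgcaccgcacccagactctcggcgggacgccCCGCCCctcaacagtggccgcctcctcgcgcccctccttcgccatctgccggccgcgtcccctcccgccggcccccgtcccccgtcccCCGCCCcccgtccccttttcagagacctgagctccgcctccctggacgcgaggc
HEG1: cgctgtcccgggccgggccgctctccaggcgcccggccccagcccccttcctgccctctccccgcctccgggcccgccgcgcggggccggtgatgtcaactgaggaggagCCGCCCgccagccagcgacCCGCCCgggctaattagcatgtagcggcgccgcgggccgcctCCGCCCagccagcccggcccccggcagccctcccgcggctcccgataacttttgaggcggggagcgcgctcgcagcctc

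These sequences lie at chr17:63622167-63622416 (+ strand, MAP3K3), chr3:167734893-167735142 (- strand, PDCD10), chr7:44999496-44999745 (+ strand, CCM2) and chr3:125055998-125056247 (- strand, HEG1). The MAP3K3 stretch held 4 CCAAT boxes, a number reached by 0.9% of the 35116 promoters in the table over the same length. PDCD10 held 1 CCAAT box, and 32% of all promoters hold at least 1. It also held 1 ETS core, found in 14.5% of promoters. Neither motif matched in the other 4 members. The GC box matched 3 times in HEG1, a number reached by 13.9% of promoters, and 2 times each in KRIT1, CCM2 and TLNRD1, reached by 24.3%. AP-1 (TGANTCA) and CRE (TGACGTCA) matched in none of the 6, and are found in 6.6% and 1.6% of promoters. No motif searched contains another. The share of G and C was 78.4% in HEG1, 76.8% in KRIT1, 73.6% in TLNRD1, 65.6% in CCM2, 64.0% in MAP3K3 and 59.6% in PDCD10, against a median of 58.0% over all promoters.

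The deposited lists give peaks and no counts, so openness is reported as the place of a peak in its library's list. Lists were ordered by the authors' p and shortened to 49774 peaks, so that place 1 is the strongest, and a region without a peak in that list is written as unlisted. The rank score is log2 of (49774 + 1) over the place, and 0 for an unlisted region. Changes below are differences in rank score from limma with their standard error (SE), and p-values are adjusted by Benjamini-Hochberg over all tested regions of a comparison, with a threshold of 0.05. A strong peak is one of the 45000 strongest of a library.

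Libraries kept 3577273 to 11404955 tags. A strong peak lay within 1 kb of the start of 3 to 6 of 9 endothelial marker genes in each library (median 5 in both lines), of 0 to 2 of 7 epithelial markers in Eahy926 (0 to 1 in TeloHAEC), of 0 to 2 of 4 smooth muscle markers in TeloHAEC (0 in Eahy926), and of 0 of 4 blood markers in all 30. Of 6 endothelial marker promoters that could be tested between the lines, CDH5 and EGFL7 were higher in TeloHAEC and the tested ROBO4 region was higher in Eahy926. Some TeloHAEC controls, among them day 0 replicates 1 and 2, had a ROBO4 peak within 1 kb of the start that did not count for that region. The 1 epithelial promoter tested, KRT8, was higher in Eahy926, and both smooth muscle promoters tested, ACTA2 and TAGLN, were higher in TeloHAEC. KRT8 and the ROBO4 region had a strong peak in 0 of 6 TeloHAEC controls, and ACTA2 and TAGLN in 0 of 6 Eahy926 controls. These entered the test only through the line where they are high, which fixed their sign in advance. The part of these features in the results below was not tested. The number of deposited peak rows at the 6 loci was 64.8 ± 5.27 in TeloHAEC controls and 46.2 ± 7.49 in Eahy926 controls (SD, n = 6 each), and that of strong peaks, which does not depend on the length of a list, 25.8 ± 1.94 and 20.3 ± 1.37.

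The promoters of the 6 genes differed widely in strength. MAP3K3 had the strongest promoter peak of the 6 in 21 of 30 libraries and a median place of 720. PDCD10 followed with a median place of 2401.5 (first in 3 libraries) and CCM2 with 4608 (first in 6). MAP3K3 was first in every Eahy926 library, while in TeloHAEC the first rank was divided among these 3 genes. The medians of MAP3K3, PDCD10 and CCM2 were 254, 1807 and 4454 in Eahy926. They kept this order in TeloHAEC but lay closer together, at 3154, 4277 and 5522. TLNRD1 had a median place of 18090 and KRIT1 of 24310. HEG1 was listed in 14 of 30 libraries and ranked last in 22.

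Within this order, neighbouring genes overlapped in place. PDCD10 ran from 241 to 8561 and CCM2 from 405 to 16641, and TLNRD1 from 4080 to 46504 and KRIT1 from 7775 to unlisted. MAP3K3 ran from 34 to 797 in the 15 Eahy926 libraries, a range that PDCD10 reached in 2 Eahy926 libraries (241 and 741) and CCM2 in 2 (405 and 661). In TeloHAEC it ran from 715 to 8213, beside 1698 to 8561 for PDCD10 and 1129 to 16641 for CCM2.

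**Figure D1:**
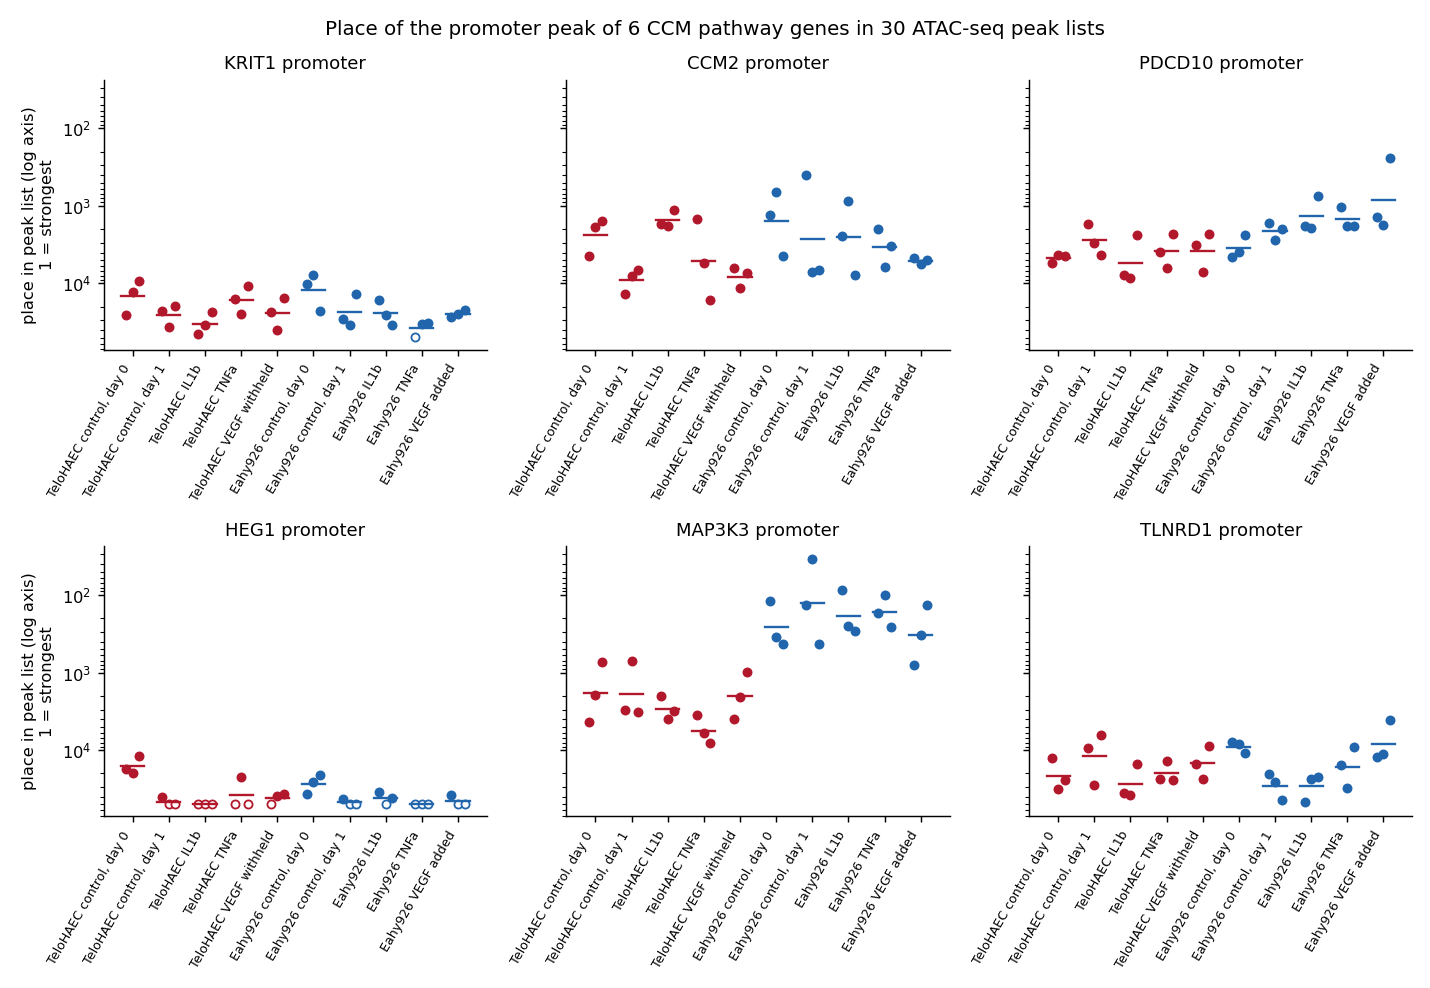
Place of the promoter peak in each library (log axis, 1 is the strongest peak), in 10 groups of 3 libraries, with TeloHAEC in red and Eahy926 in blue. Open points are unlisted libraries drawn at 49775, and bars are geometric means. MAP3K3 is the promoter whose TeloHAEC and Eahy926 controls do not overlap.

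The promoter peaks sat close to the starts. The median summit was 124 bp downstream of the start for KRIT1 in TeloHAEC and 126.5 bp in Eahy926, 288 and 261 bp downstream for CCM2, and at -341 and -261 bp, which is upstream, for MAP3K3. The PDCD10 peak was the widest, with a median of 1248 bp in TeloHAEC and 1205 bp in Eahy926, and covered 2 regions at once in 25 libraries. The KRIT1 pair of promoter regions was covered by 1 peak in 12 libraries. Such pairs are 1 measurement and not 2. In the RefSeq gene table, ANKIB1 neighbours KRIT1 and SERPINI1 neighbours PDCD10 on the upstream side, and which gene of a pair a peak serves was not tested.

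Between the untreated lines, the MAP3K3 promoter was the only one of the 6 that changed, and it was lower in TeloHAEC. MAP3K3 encodes the kinase that CCM2 restrains. Its promoter region (hg19 chr17:61699262-61699762, 0.3 kb from the start) had places of 120, 352 and 427 in Eahy926 on day 0 and 136, 34 and 434 on day 1. In TeloHAEC, the places were 4366, 1976 and 725 on day 0 and 3002, 715 and 3262 on day 1. All 6 Eahy926 controls ranked above all 6 TeloHAEC controls. A second MAP3K3 promoter region, 0.8 kb from the start, shared its peak with the first in 0 libraries and was not called. It leaned the other way, by 0.25 ± 0.45 within day 0 and 0.80 ± 0.59 within day 1 (adjusted p = 0.688 and 0.336, limma).

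The fitted change at the MAP3K3 promoter was -3.37 ± 0.83 (adjusted p = 0.00435, limma). Within day 0 it was -2.81 ± 0.99 (adjusted p = 0.0483) and within day 1 -3.92 ± 1.23 (adjusted p = 0.0360). With lists ordered by the authors' fold enrichment, the change was -1.37 ± 0.53 and the adjusted p 0.0521. Over all 15 libraries of a line, the only overlap came from the Eahy926 library with VEGF added, replicate 1, at place 797, beside 2 TeloHAEC controls at 715 and 725. That Eahy926 library was among the 3 with the fewest tags.

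The other promoters gave smaller differences that did not pass the test. CCM2 changed by -1.16 ± 0.70 (adjusted p = 0.184, limma), PDCD10 by -0.42 ± 0.46 (adjusted p = 0.477), KRIT1 by -0.17 ± 0.37 (adjusted p = 0.726) and HEG1 by 0.40 ± 0.25 (adjusted p = 0.205). The errors leave room for differences of more than 1 unit at CCM2 and PDCD10. TLNRD1 changed by 0.01 ± 0.48 over both days, but its sign differed between them. On day 0 the value was -1.25 ± 0.42 (adjusted p = 0.0417) and on day 1 1.27 ± 0.60 (adjusted p = 0.134). The TLNRD1 promoter was at places 7934, 8363 and 11060 in Eahy926 and 12733, 31981 and 24080 in TeloHAEC on day 0, and at 20381, 26040 and 44575 against 9475, 28281 and 6335 on day 1.

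Counting all member regions, 13 of 32 tested regions differed between the lines, 10 higher and 3 lower in TeloHAEC. This is 40.6% of the members, against 37.7% of all tested regions (19.6% higher and 18.1% lower), so the share is near the background. The median change was 0.08 over the members and -0.08 over all regions. Some of the higher regions had a strong peak in 0 of 6 Eahy926 controls. They were CCM2 22.1 kb and HEG1 36.5 kb downstream, and MAP3K3 25.4 kb upstream and 43.3 kb downstream. Only TeloHAEC brought them into the test, so their sign was fixed in advance and the split by direction partly reflects the filter. KRIT1 20.7 kb upstream, HEG1 23.6 kb downstream and TLNRD1 38.5 kb downstream had a strong peak in 6 TeloHAEC controls and 1 Eahy926 control each. They too entered the test through TeloHAEC, where they are high, so their direction also partly reflects the filter. Of the 13, 12 were distal and 1 a promoter region, out of 22 distal and 10 promoter regions tested. Distal means more than 1 kb from the start of the member, and starts of other genes under these regions were not looked for. The shares over all distal and all promoter regions were not computed, so these counts show no trait of the members. The controls of the lines did not overlap in 4 member regions, against 15.3% of all regions. All 4 were among the called ones. The remaining 15 of the 47 regions had a strong peak in too few controls to be tested.

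**Figure D2:**
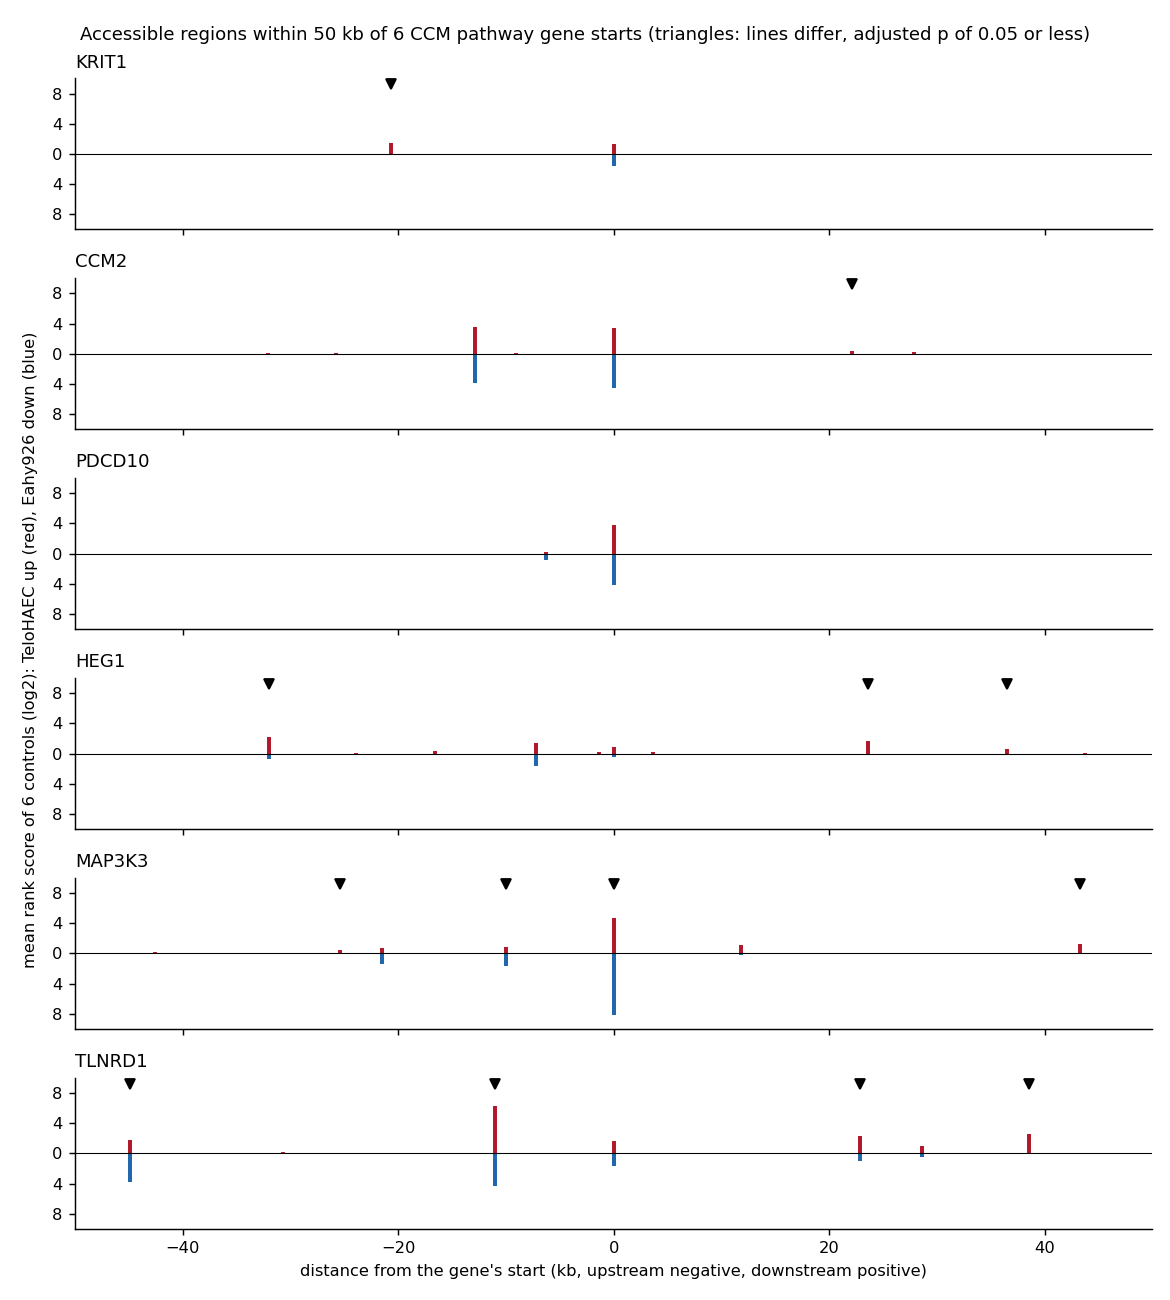
Mean rank score of 6 TeloHAEC controls (red, upward) and 6 Eahy926 controls (blue, downward) at member regions by distance from the start in kb, along the direction of the gene. Triangles mark the 13 regions with an adjusted p of 0.05 or less. Second promoter regions, which are close to the start, are not drawn.

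**Figure D3:**
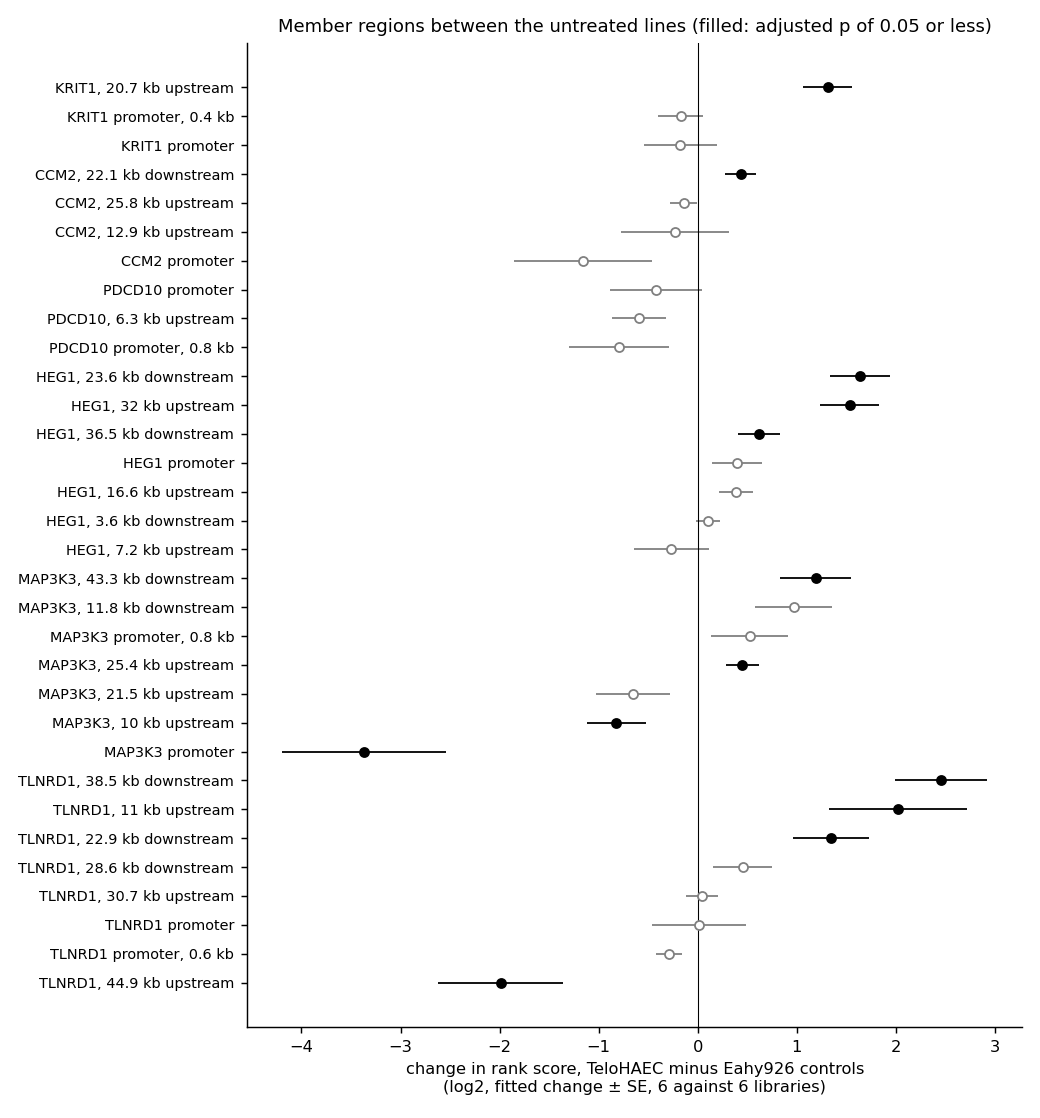
Fitted change in rank score between the lines (TeloHAEC minus Eahy926, ± SE, 6 libraries each) at the 32 tested member regions. Filled points passed the threshold. The MAP3K3 promoter, at -3.37, is the lowest, and the TLNRD1 region 38.5 kb downstream, at 2.46, the highest.

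At KRIT1, which encodes the scaffold protein that binds HEG1, 1 of 3 regions was called. It lies 20.7 kb upstream (chr7:91895851-91896351), on the side of ANKIB1. In TeloHAEC it was listed in all 15 libraries, and the controls were at 29893, 24535 and 18645 on day 0 and 11788, 18985 and 15570 on day 1. In Eahy926, 7 of 15 libraries were listed, among them 1 of 6 controls, at 36758. A deposited peak was present in 10 of 15 Eahy926 libraries. The change was 1.31 ± 0.25 (adjusted p = 0.000599, limma). It kept an adjusted p under the threshold in each of the 21 alternatives. The region entered the test through TeloHAEC, as only 1 Eahy926 control had a strong peak.

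At CCM2, which encodes the scaffold protein that binds MAP3K3, the 2 strongest regions were shared by the lines. The promoter (chr7:45039376-45039876) and the region 12.9 kb upstream (chr7:45026201-45026701) held a strong peak in 30 of 30 libraries, the latter at places 1729 to 12154 in TeloHAEC and 845 to 14384 in Eahy926. The region 22.1 kb downstream (chr7:45061157-45061657) was called, at 0.43 ± 0.16 (adjusted p = 0.0363). It was unlisted in all 15 Eahy926 libraries and listed in 13 TeloHAEC libraries, with controls at 32870, unlisted and 39807 on day 0 and 29077, 49773 and 26736 on day 1. Only TeloHAEC brought the region into the test, which fixed the sign of its change. The call was retained in 7 of 18 alternatives and was lost when any of 9 of the 12 controls was left out (adjusted p up to 0.0717).

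PDCD10, the scaffold member that binds the STK24 and STK25 kinases, had no called region among 3. Its distal region with the smallest p was 6.3 kb upstream (chr3:167458704-167459204), toward SERPINI1, with a change of -0.59 ± 0.27 (adjusted p = 0.0895, limma). It was listed in 4 of 15 TeloHAEC and 11 of 15 Eahy926 libraries.

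HEG1, the receptor, had a weak promoter and its peaks spread over distal regions. The promoter (chr3:124774763-124775263) was listed in 7 of 15 libraries of each line. The region 7.2 kb upstream (chr3:124781726-124782226) held a strong peak in 30 of 30 libraries and differed by -0.27 ± 0.38 (adjusted p = 0.590, limma), with opposite signs on the days, 0.52 ± 0.26 on day 0 and -1.05 ± 0.60 on day 1 (adjusted p = 0.134 and 0.210). Among 7 tested regions, 3 were called and all 3 were higher in TeloHAEC.

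The HEG1 region 23.6 kb downstream of the start (chr3:124750935-124751435) was listed in all 15 TeloHAEC libraries and in 4 of Eahy926. TeloHAEC controls were at 19922, 25067 and 34919 on day 0 and 11457, 7955 and 7284 on day 1, while 1 Eahy926 control was listed, at 34523. With VEGF withheld, TeloHAEC replicate 1 was at 1010, beside 29782 and 17214. The change between the untreated lines was 1.64 ± 0.31 (adjusted p = 0.000549, limma). The region 32 kb upstream (chr3:124806568-124807068) changed by 1.54 ± 0.30 (adjusted p = 0.000739), with TeloHAEC controls at 20366, 17502, 24564, 6307, 4830 and 4795 and Eahy926 controls at 42620, unlisted, 44813, 16436, 18978 and 25677 in the order of days and replicates. Within a day the controls of these 2 regions did not overlap, and the share of all regions was not computed within days. Both calls held in each of 21 alternatives. The first region entered the test through TeloHAEC, as only 1 Eahy926 control had a strong peak. The change of the first was 0.94 ± 0.23 on day 0 and 2.34 ± 0.42 on day 1, and that of the second 1.15 ± 0.23 and 1.93 ± 0.51.

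The third HEG1 call, 36.5 kb downstream (chr3:124738033-124738533), rested on day 1 controls of TeloHAEC. A deposited peak was present in 15 of 15 TeloHAEC and 0 of 15 Eahy926 libraries. In the 3 TeloHAEC controls of day 0 it lay below the shortened list and was thus unlisted, and the TeloHAEC controls of day 1 were at 22761, 15118 and 27075. The change between the lines was 0.62 ± 0.21 (adjusted p = 0.0263, limma). It was retained in 12 of 17 alternatives and lost without any 1 of the 3 Eahy926 controls of day 1 (adjusted p 0.0613 to 0.0624). The region entered the test only through its strong peaks in the 3 TeloHAEC controls of day 1, which fixed the sign in advance. Without any 1 of those 3 it could not be tested, so such runs are not among the 17.

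MAP3K3 had 4 called regions among 7 tested, 2 in each direction. Besides the promoter, the region 43.3 kb downstream (chr17:61742874-61743374) was listed in 15 of 15 TeloHAEC and 0 of 15 Eahy926 libraries. Its TeloHAEC controls were at 35162, 43900 and 27011 on day 0 and 5069, 15196 and 33430 on day 1. Only TeloHAEC brought this region into the test, which fixed the sign of its change. The change was 1.19 ± 0.36 (adjusted p = 0.0148, limma), opposite in sign to that of the promoter, and 19 of 21 alternatives retained the call. Within day 0 it was 0.52 ± 0.18 (adjusted p = 0.0486) and within day 1 1.86 ± 0.59 (adjusted p = 0.0380). The regions 25.4 kb upstream (0.45 ± 0.17, adjusted p = 0.0421) and 10.0 kb upstream (-0.82 ± 0.30, adjusted p = 0.0375) were retained in 5 of 18 and 9 of 21 alternatives. Leaving out 1 of 10 controls for the first and 1 of 7 for the second ended the call. The region 10.0 kb upstream passed within neither day (adjusted p = 0.261 on day 0 and 0.0669 on day 1). The uncalled region 21.5 kb upstream was at -1.39 ± 0.36 on day 0 (adjusted p = 0.0160) and 0.08 ± 0.51 on day 1 (adjusted p = 0.922). It lies on the side of the neighbour TACO1, and whether it is at the start of that gene was not examined.

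TLNRD1 had 4 called regions among 8 tested. The region 38.5 kb downstream (chr15:81331497-81331997) rose most, by 2.46 ± 0.46 (adjusted p = 0.000596, limma). TeloHAEC controls were at 12096, 29712 and 29437 on day 0 and 6114, 4933 and 1390 on day 1, and 2 Eahy926 controls were listed, at 47355 and 42000. All TeloHAEC controls ranked above all Eahy926 controls, and the call held in 21 of 21 alternatives, with 1.16 ± 0.34 on day 0 and 3.76 ± 0.62 on day 1. Only 1 Eahy926 control had a strong peak there, so TeloHAEC brought this region into the test. The region 22.9 kb downstream (chr15:81315931-81316431) changed by 1.35 ± 0.38 (adjusted p = 0.0107), with TeloHAEC controls at 4666 to 20965 and Eahy926 controls at 19795 to 31399, a call retained in 19 of 21 alternatives. It passed on day 0 (1.53 ± 0.48, adjusted p = 0.0322) and did not on day 1 (1.16 ± 0.56, adjusted p = 0.139).

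Upstream of TLNRD1, on the side of its neighbour MESD, the region 44.9 kb away (chr15:81248111-81248611) was lower in TeloHAEC, at -1.99 ± 0.63 (adjusted p = 0.0196, limma). Within day 0 the change was -0.89 ± 0.76 (adjusted p = 0.381) and within day 1 -3.09 ± 0.87 (adjusted p = 0.0252). Its Eahy926 controls ran from 981 to 10957 and its TeloHAEC controls from 3030 to 25853, and 19 of 21 alternatives retained the call. The region 11 kb upstream (chr15:81282021-81282521) was the strongest member region of any library, at place 28 in a TeloHAEC control of day 0. It was higher in TeloHAEC by 2.02 ± 0.70 (adjusted p = 0.0290), and this call was retained in 12 of 21 alternatives. It passed within neither day, at 3.23 ± 1.17 on day 0 (adjusted p = 0.0537, limma) and 0.82 ± 0.71 on day 1 (adjusted p = 0.412). Leaving out Eahy926 day 0 replicate 1 or 2, TeloHAEC day 0 replicate 1 or TeloHAEC day 1 replicate 3 gave an adjusted p of 0.0508 to 0.0650. Whether these upstream regions lie at the start of MESD or of another gene was not examined.

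Some of the same regions differed between the days of library preparation, and the cause was not tested. In TeloHAEC controls, 5 of 28 tested member regions differed between day 1 and day 0 (3 higher, 2 lower), against 11.6% of all regions (4.98% higher and 6.59% lower). In Eahy926 controls, 4 of 20 differed (2 higher, 2 lower), against 17.6% (8.12% higher and 9.47% lower). All 9 calls were at HEG1 or TLNRD1. Treated cells were compared only with controls of day 1.

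The TLNRD1 region 11 kb upstream fell on day 1 in both lines, from places 28, 189 and 128 to 5532, 7802 and 2234 in TeloHAEC and from 963, 1007 and 572 to 4400, 11681 and 10344 in Eahy926. The changes were -5.71 ± 1.20 (adjusted p = 0.0174, limma) and -3.30 ± 0.64 (adjusted p = 0.0104). Neither line had overlapping days, and the share of all regions like this was not computed. HEG1 32 kb upstream rose in both, by 1.97 ± 0.54 (adjusted p = 0.0357) in TeloHAEC and 1.19 ± 0.30 (adjusted p = 0.0228) in Eahy926.

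In TeloHAEC, the HEG1 promoter fell by 1.54 on the rank-score scale (SE 0.37, adjusted p = 0.0243, limma), from places 17405, 19717 and 11808 to 39860 and 2 unlisted libraries. It had a strong peak in 3 controls of day 0 and 1 of day 1, so it entered the test through day 0, where it is high. The HEG1 region 36.5 kb downstream rose by 1.24 ± 0.31 (adjusted p = 0.0280) and the TLNRD1 region 38.5 kb downstream by 2.66 ± 0.71 (adjusted p = 0.0327). That HEG1 region entered the test only through the 3 controls of day 1, which fixed its sign in advance. In Eahy926, the HEG1 region 7.2 kb upstream rose by 2.06 ± 0.45 (adjusted p = 0.0146), from places 35379, 27364 and 32694 to 8090, 11822 and 4526, and the TLNRD1 promoter changed by -1.67 ± 0.43 (adjusted p = 0.0247). With 6 libraries a fit, 7 of these 9 day calls were lost when 1 library or another was left out, and the 2 that were not were HEG1 7.2 kb upstream and TLNRD1 11 kb upstream in Eahy926. The TeloHAEC count then ranged from 1 to 3 and the Eahy926 count from 2 to 4.

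IL1b and TNFa are inflammatory cytokines, and VEGF is an endothelial growth factor. No member region passed the test in any of the 6 treatment comparisons. The number tested was 30 in TeloHAEC and 27 in Eahy926. Over all regions, limma called 0.334% for IL1b, 0.00341% for TNFa and 0% for withheld VEGF in TeloHAEC, and 0.00353% for IL1b, 0.267% for TNFa and 0% for added VEGF in Eahy926, so few calls would be found in lists of this size. At an unadjusted p under 0.05, member regions numbered 4 for IL1b, 2 for TNFa and 0 for VEGF in TeloHAEC, and 0, 2 and 2 in Eahy926. Over all regions that threshold was passed by 9.92%, 7.76% and 5.03% in TeloHAEC and 4.20%, 8.77% and 5.08% in Eahy926. The treatments of a line share their controls, so their values are given side by side only.

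The largest treatment value at a promoter was at CCM2 with IL1b in TeloHAEC. The places were 1714, 1812 and 1129 with IL1b against 13568, 8068 and 6638 in the controls of day 1, with no overlap. How many of all regions separate in this way with a treatment was not counted. The change was 2.57 ± 0.89 (adjusted p = 0.262, limma). The day 0 controls of the same line, at 4462, 1857 and 1561, were close to the treated libraries. When a peak had to cover 80% of the shorter of peak and region, the change was -0.02 ± 1.06, so the value depends on how peaks were assigned. In TeloHAEC with TNFa the CCM2 promoter was at 1487, 5522 and 16641, and the last value was from 1 of the 3 libraries with the fewest tags.

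CCM2 22.1 kb downstream also moved toward the top of the list with both cytokines in TeloHAEC. It was at 8079, 10883 and 18455 with IL1b and at 13488, 7587 and 10655 with TNFa, against 29077, 49773 and 26736 in the controls. All 6 treated libraries ranked above the 3 controls, and the share of all regions that do so was not computed. The changes were 1.53 ± 0.56 (adjusted p = 0.305, limma) and 1.72 ± 0.56 (adjusted p = 0.501). With VEGF withheld, the 3 libraries were unlisted and at 28886 and 33816. MAP3K3 43.3 kb downstream went the other way with IL1b in TeloHAEC, by -1.56 ± 0.59 (adjusted p = 0.321, limma). It was at 47649, 34552 and 40506 with IL1b against 5069, 15196 and 33430 in the controls.

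**Figure D4:**
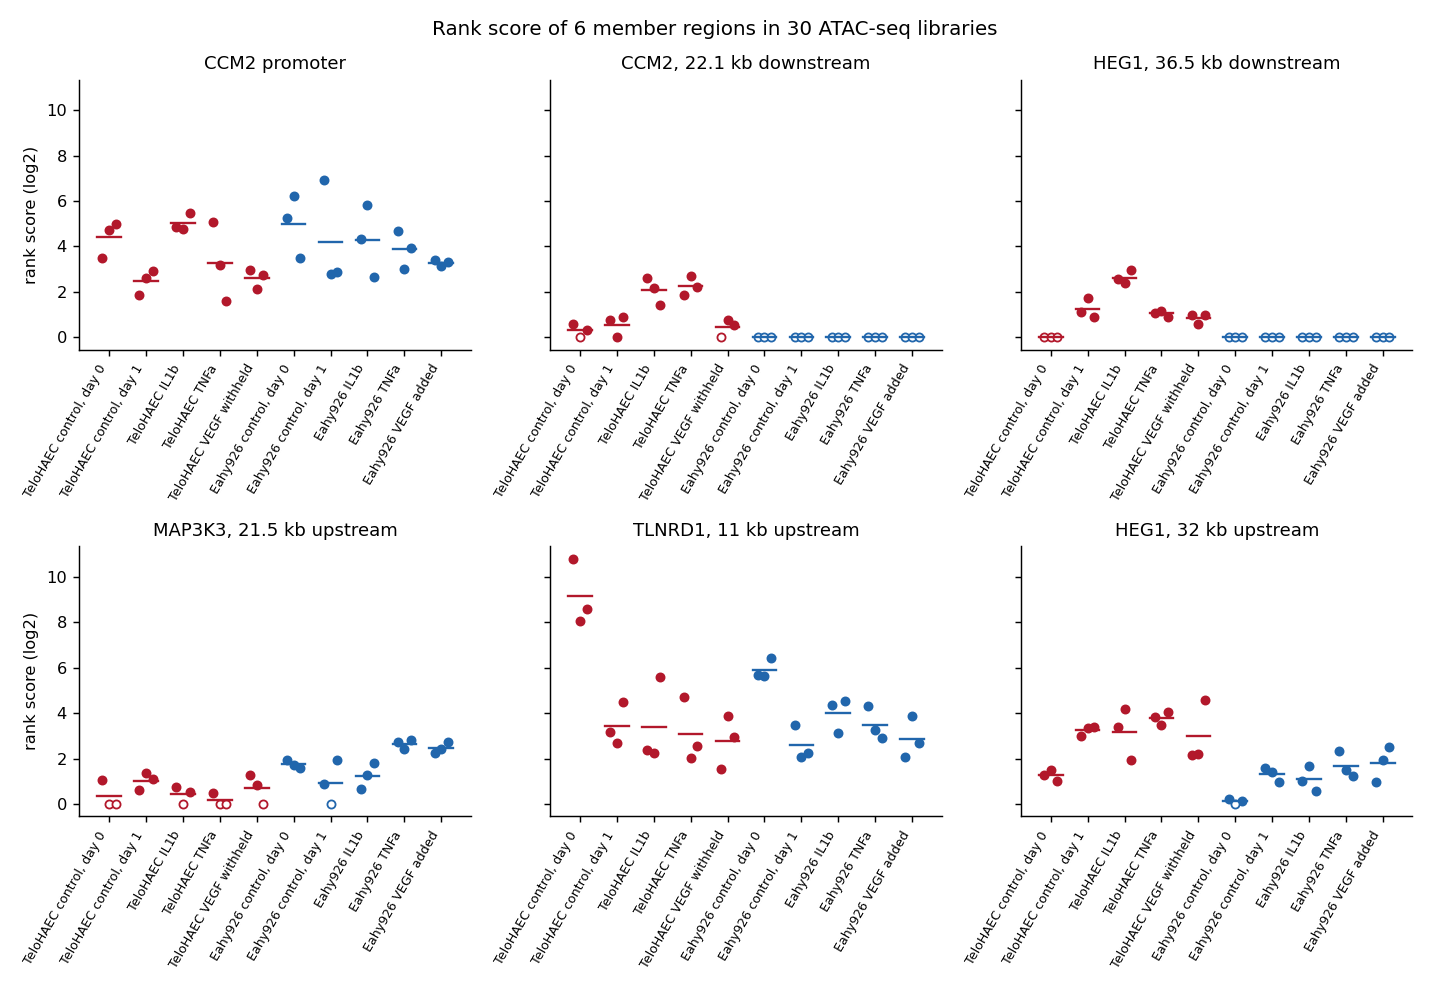
Rank score (log2) of 6 member regions in each of 30 libraries, in 10 groups of 3, with TeloHAEC in red and Eahy926 in blue. Bars are means and open points unlisted libraries at 0. CCM2 22.1 kb downstream is at 0 in all 15 Eahy926 libraries, and TLNRD1 11 kb upstream is highest in the day 0 controls of both lines.

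For TNFa in TeloHAEC, the second region by p was MAP3K3 21.5 kb upstream (chr17:61677984-61678484), at -0.86 ± 0.40 (adjusted p = 0.626, limma). The same region had the smallest p for TNFa in Eahy926, at 1.71 ± 0.57 (adjusted p = 0.293). Its Eahy926 places were 7523, 9252 and 7122 with TNFa against 26915, unlisted and 12874 in the controls. In TeloHAEC they were 35300 and 2 unlisted libraries against 32108, 19540 and 23321. The difference between the responses of the lines was -2.57 ± 0.66 (adjusted p = 0.211).

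Other Eahy926 values were smaller against their errors or came with larger adjusted p. With TNFa, KRIT1 20.7 kb upstream was at 10216, 30408 and 34173 against 36758 and 2 unlisted controls, a change of 1.03 ± 0.43 (adjusted p = 0.474, limma). With VEGF added, the TLNRD1 promoter was at 12330, 11279 and 4080 against 20381, 26040 and 44575, a change of 1.79 ± 0.58 (adjusted p = 0.967). MAP3K3 21.5 kb upstream was at 10364, 9182 and 7609 with VEGF, a change of 1.52 ± 0.57 (adjusted p = 0.967). IL1b gave 1.39 ± 0.70 at TLNRD1 11 kb upstream and -0.98 ± 0.52 at MAP3K3 10.0 kb upstream (adjusted p = 1 for both).

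Withheld VEGF in TeloHAEC had no member region at an unadjusted p under 0.05. The 2 smallest p-values were at CCM2 27.9 kb downstream (-0.41 ± 0.25) and at the second PDCD10 promoter region, 0.8 kb from the start (-1.48 ± 0.94), with an adjusted p of 0.993 for both (limma). Over the 6 treatments, the change ranged from -1.56 ± 0.97 to -0.08 ± 0.97 at the MAP3K3 promoter, from -0.96 ± 0.90 to 1.31 ± 0.90 at PDCD10, from -0.67 ± 0.48 to 0.64 ± 0.54 at KRIT1 and from -0.11 ± 0.25 to 0.28 ± 0.25 at HEG1. The spans at CCM2, from -0.92 ± 0.92 to 2.57 ± 0.89, and at TLNRD1, from -1.20 ± 0.64 to 1.79 ± 0.58, were wider.

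The response to a cytokine was also compared between the lines in the 24 libraries of day 1. Of 33 tested member regions, 0 passed for IL1b (0.258% of all regions) and 0 for TNFa (0.0518%), with 3 and 2 at an unadjusted p under 0.05 (limma), against 8.07% and 7.25% of all regions. For IL1b the smallest p-values were at HEG1 36.5 kb downstream, 1.39 ± 0.46 (adjusted p = 0.299), and at CCM2 22.1 kb downstream, 1.53 ± 0.51 (adjusted p = 0.301). Both regions are unlisted in every Eahy926 library, so the whole difference is the TeloHAEC change. HEG1 36.5 kb downstream was at 8500, 9609 and 6395 with IL1b against 22761, 15118 and 27075 in controls. These did not overlap, and the share of all regions like this was not computed. For TNFa, CCM2 22.1 kb downstream gave 1.72 ± 0.51 (adjusted p = 0.312), after the MAP3K3 region above.

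The promoters of further pathway genes were read in the same way. Of 24 such genes with a start, 20 had a tested promoter region between the lines (CCM2L, MEF2C, ADAMTS5 and NOS3 had none). Of these, 1 was higher and 2 were lower in TeloHAEC, against 37.7% of all tested regions called in either direction. That share includes distal regions, and a share over promoters alone was not computed. Among 9 partners of the complex, 1 rose, namely CDH5, the endothelial cadherin, at 0.90 ± 0.30 (adjusted p = 0.0246, limma). Among 6 genes of the kinase cascade, 1 fell, the transcription factor MEF2D, at -0.97 ± 0.30 (adjusted p = 0.0169). KLF2 changed by -0.51 ± 0.34 (adjusted p = 0.229), KLF4 by -0.64 ± 0.33 (adjusted p = 0.129) and MAPK7, the kinase at the end of the cascade, by 0.11 ± 0.58 (adjusted p = 0.892).

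Of 5 output genes, 1 fell, THBD, which encodes the anticoagulant receptor thrombomodulin, at -2.11 ± 0.42 (adjusted p = 0.000972, limma). ADAMTS4, a protease, changed by 0.24 ± 0.12 (adjusted p = 0.124). The median change was -0.11 over the 20 promoters. With cytokines or VEGF, 0 of 16 tested pathway promoters in TeloHAEC and 0 of 17 in Eahy926 passed in any treatment (limma). At an unadjusted p under 0.05 there was 1 for TNFa in TeloHAEC, 1 for IL1b in Eahy926 and 0 in each of the other 4 treatments.

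Likeness of promoters was described by Pearson's r of the mean rank score over the 10 groups, against 33 other promoters. The groups share lines and days, and no test was made. MAP3K3 was most like THBD (0.929), KRT8 (0.859) and ROBO4 (0.794). HEG1 was most like STK24 (0.957), STK25 (0.939) and CDC42BPB (0.908), and PDCD10 like MAPK7 (0.860), ROBO4 (0.810) and THBD (0.740). The HEG1 means were 0.88 and 1.64 in the day 0 controls of Eahy926 and TeloHAEC, and 0 to 0.38 in all other groups. STK24 had a strong peak in 3 libraries of each line, all of them controls. The HEG1 values of r thus rest largely on the day 0 groups. KRIT1 was most like ADAMTS1 (0.801), HEG1 (0.790) and RAP1B (0.789). For CCM2 the highest values were 0.658 (KLF2), 0.551 (TLN1) and 0.550 (ADAMTS1), and for TLNRD1 0.531 (KDR), 0.481 (RHOB) and 0.470 (KLF4).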

How the data were processed

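The submitters' processing notes name hg19, Bowtie2 and MACS2. The version was MACS2 2.1.1.20160309, run without a control library at a p threshold of 0.001, per the file headers. The deposited tables give each summit's pileup (signal, coverage in tags), -log10 p, fold enrichment (a ratio) and -log10 q, all computed by the authors. They hold no counts. On 22 autosomes, summits of 1 interval were merged to the strongest, each list was sorted by the authors' p, fold enrichment breaking ties, and only its first 49774 peaks were used. The 45000 strongest peaks of each list defined 501-bp regions, and a peak covering at least 50% of the shorter gave a region its place. The test was limma 3.58.1 (R 4.3.3, with trend, two-sided) on rank scores, over regions with a strong peak in at least 3 libraries of the fit. The lines were compared in 12 controls with day as a term, treatments in the 12 day 1 libraries of a line, responses in 24 and days in 6. The fit was tested on simulated data. Same-numbered replicates did not deviate together (median r -0.006 in TeloHAEC and -0.003 in Eahy926, 0 of 18 pairs above 0.1 in each), so no block was used.

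Gene starts of non-members were written from general knowledge of hg19, for 53 genes with the members, and 53 of 53 matched the chromosome in the RefSeq table of GRCh38.p14, so distances are approximate. Named were the promoter region nearest each start, every called region, the distal region with the smallest p per gene between the lines, and the 2 regions with the smallest p per treatment or response difference. Members and lists were chosen with earlier results of these data known. Python 3.11.15 with NumPy 2.4.6, pandas 2.3.3 and matplotlib 3.10.9 was used.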

Additional observations from a re-analysis of the deposited data

How the results depend on the processing

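In the comparison of the lines, 13 called member regions became 8 with lists ordered by fold enrichment, 7 with no filter on regions, 8 in day 1 controls only, 7 in a window of 25 kb and 21 in one of 100 kb, and 9 to 14 when 1 library was left out. Between days, the 5 calls of TeloHAEC became 2 by fold enrichment, 2 at an overlap of 80%, 3 with the 30000 strongest peaks, 0 with no filter, 2 at 25 kb and 1 to 3 with 1 library left out. The 4 calls of Eahy926 became 2 at an overlap of 80%, 1 with no filter and 2 to 4 with 1 library left out. Windows change the set of regions by construction, and fewer libraries the residual degrees of freedom. The cause of the other changes was not tested. With the replicate number as a block, 10 regions were called between the lines. The counts of 0 in the 6 treatments and both response differences stayed 0 under every alternative run.

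Of the single regions run under all alternatives, signs changed for 4 values that were not called. CCM2_promoter with IL1b in TeloHAEC went to -0.023 at an overlap of 80%. KRIT1_promoter between the lines went to 0.14 at an overlap of 80%, and ranged from -0.37 to 0.017 with 1 library left out. TLNRD1_promoter between the lines went to -0.48 by fold enrichment, -0.0697 with the 30000 strongest peaks and -1.25 in day 0 controls only, and ranged from -0.33 to 0.28 with 1 library left out. HEG1_upstream_7.2kb between the lines went to 0.019 at an overlap of 80% and 0.52 in day 0 controls only, and ranged from -0.39 to 0.0053 with 1 library left out. Other uncalled regions that changed sign in day 1 controls only were CCM2 12.9 kb upstream (0.20), the second KRIT1 promoter region (0.07) and MAP3K3 21.5 kb upstream (0.08). The 3 shallowest libraries are all treated ones, so leaving them out does not apply to lines or days. A region without a peak in a shortened list may still be open below it, and peak lists cannot give an upper limit for it.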
